A study of Homo sapiens with 36 samples.

Results

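The cytosolic ribosome is built from a large (60S) and a small (40S) subunit, each a scaffold of ribosomal RNA dressed with proteins that are encoded by single nuclear genes. Most mRNAs of these genes start with a C followed by a run of pyrimidines, the 5′ terminal oligopyrimidine (TOP) motif, through which the kinase mTOR and the RNA-binding protein LARP1 control their translation and stability. The genes examined here were the protein-coding rows of the count table whose symbol began with RPL, RPS or RPLP followed by a number, with an optional A, X or L, together with RPSA. This rule used names only and found 81 genes, 49 of the 60S and 32 of the 40S subunit, among 60675 rows, of which 19586 were protein-coding. The 1586 pseudogenes named after these genes were left out, and FAU and RACK1, which encode further ribosomal proteins, have other names and were not among them.

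Transcripts were measured by RNA sequencing in 36 libraries of 2 human cell lines, SW1783, from an astrocytoma and grown in Leibovitz's L-15 medium without CO2, and HT29, from a colorectal adenocarcinoma and grown in DMEM with CO2. Each line gave 6 groups of 3 libraries, all collected after 24 h. Batch A held vehicle (DMSO) and wortmannin at 10 µM, an inhibitor of PI3K, and batch B held its own vehicle (DMSO) and a water extract of Aconiti Lateralis Radix Preparata (ACD, from Aconitum carmichaeli Debeaux) at 20 µg/mL (low), 100 µg/mL (medium) and 500 µg/mL (high). The labels give the vehicle as 0.1% DMSO and the design text as 2% DMSO. The study describes PBS with 2% DMSO as the vehicle and as the solvent of the extract, which was added in a small volume to the medium. The 2% thus refers to the solution added and not to the medium on the cells. The labels do not say whether the 3 libraries of a group came from separate cultures. No normal tissue was included, so that each tissue is represented by 1 cancer line and p-values measure the spread between these libraries only.

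Library totals ranged from 15941255 to 33866644 counts. Identity markers separated the lines, with EPCAM at 524 CPM (counts relative to the library total) in HT29 against 0.045 in SW1783 and VIM at 4560 CPM in SW1783 against 0.049 in HT29 (means of 18 libraries), but GFAP and S100B, the markers that define astrocytes, were near 0 in SW1783 at 0.102 and 0.0854 CPM. The vehicles of batches A and B were close to one another library by library. The difference per degree of freedom between same-numbered vehicle libraries (chi-square of counts over genes) was 1.46 to 1.64, below every pair of libraries within a group (1.68 to 71.5), so that the batches cannot be taken as fully independent samples of vehicle. In HT29, 2 batch B libraries stood apart for the ribosomal protein genes, vehicle replicate 1 and ACD high replicate 2, and so did replicate 1 of the batch A vehicle, and results that rest on them are given with and without them.

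The first bases of the mRNAs on which the results turn are shown because they tell which of them begin with a TOP-like tract. Each line gives 10 bases before and 20 from the transcript start annotated by RefSeq on GRCh38.p14, 5′ to 3′ on the strand of the gene, and capitals mark a run of pyrimidines that opens with C exactly at the start and is at least 5 bases long.
RPS26 (chr12:56041908-56041937, + strand): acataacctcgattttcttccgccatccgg
RPL3 (chr22:39319604-39319633, - strand): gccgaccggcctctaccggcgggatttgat
RPL10A (chr6:35468391-35468420, + strand): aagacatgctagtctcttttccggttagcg
RPS27L (chr15:63157458-63157487, - strand): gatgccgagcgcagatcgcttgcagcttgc
RPL12 (chr9:127451387-127451416, - strand): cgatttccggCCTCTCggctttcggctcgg
RPL38 (chr17:74203668-74203697, + strand): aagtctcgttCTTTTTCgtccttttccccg
RPL24 (chr3:101686699-101686728, - strand): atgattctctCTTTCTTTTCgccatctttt
RPL35 (chr9:124861938-124861967, - strand): cgcctacttcCTCTTTCCCTCggagcgggc
RPLP1 (chr15:69452808-69452837, + strand): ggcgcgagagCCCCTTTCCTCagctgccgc
RPL31 (chr2:101002279-101002308, + strand): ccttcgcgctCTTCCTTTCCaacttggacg

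RPS26, RPL3, RPL10A and RPS27L had no such tract at the annotated base, while the other 6 sequences did. A C followed by at least 4 pyrimidines stood exactly at the start in 42 of the 64 ribosomal protein genes with a promoter entry (65.6%), in 5 of 69 mitochondrial ribosomal protein genes (7.25%) and in 4.07% of all 35116 promoters. Within 10 bases of the start, on the strand of the gene, it was found in 55 of the 64 genes (85.9%) and in 33.5% of all promoters. RPS26, RPL3 and RPL10A were among these 55 genes, and RPS27L was not. Genes described below as having no tract lack it at the exact start, and many of them hold one within 10 bases. A match describes the letters at an annotated start only, and the start used in these cells was not measured.

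In untreated cells the ribosomal protein genes took a larger share of the counts in HT29 than in SW1783. Summed over the 81 genes, the share was 3.57% to 3.81% in all 18 SW1783 libraries, whatever the treatment, and 4.56% to 7.43% in the 18 HT29 libraries, so that the lines did not overlap. Within HT29, the batch B vehicle libraries had 6.79%, 5.74% and 5.46%, and the ACD high libraries 4.56%, 7.43% and 4.97%. The lowest and the highest HT29 shares thus came from a single group, ACD high.

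Tested gene by gene on the batch B vehicles with the DESeq2 Wald test, 58 of 80 ribosomal protein genes were lower in SW1783 than in HT29 and 7 were higher at an adjusted p under 0.05, where 32.6% of all genes tested were lower and 36.8% were higher. Over the 80 genes the median log2 difference was -0.55, against a median of 0.05 over all genes. With the additional cut of a 1.5-fold change that the study uses for differentially expressed genes, 39 were lower and 1, RPL39L, higher (25.6% and 30.3% of all genes). With the batch A vehicles 59 were lower and 4 higher (31.8% and 35.5% of all genes). The culture medium and the line cannot be told apart.

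RPLP1, an acidic protein of the stalk that brings elongation factors to the ribosome, had 9628 ± 231 normalized counts (SD, n = 3) in SW1783 and 32892 ± 6874 in HT29, scaled together. RPL31, a protein near the exit of the peptide tunnel, had 2952 ± 62.5 in SW1783 and 9969 ± 1732 in HT29. For both genes the lines did not overlap, and the log2 difference was -1.77 ± 0.12 (SE) for RPLP1 (DESeq2 adjusted p = 4.16e-47) and -1.76 ± 0.11 for RPL31 (1.36e-55). RPL24, which forms a bridge between the subunits, followed at -1.75 ± 0.11 (adjusted p = 9.89e-53), so that the 3 largest differences of this sign were all in 60S proteins.

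The genes higher in SW1783 included RPSA, the laminin receptor precursor on the 40S subunit, by 0.45 ± 0.07 on the log2 scale (DESeq2 adjusted p = 1.73e-10) and RPL15 by 0.38 ± 0.06 (1.43e-08). The clearest line-specific gene was RPL39L, a paralog of RPL39 known from testis and from tumours. It had 219.9 ± 12.6 normalized counts (SD, n = 3) in the SW1783 vehicle of batch B and 0 counts in all 18 HT29 libraries, which made it at least 76.7-fold higher in SW1783 against a floor of 3 counts per library (at least 75.1-fold in batch A). Of the other paralogs, RPL10L was at 0 CPM in both lines, RPL3L was at 0.234 CPM in SW1783 and 0.0675 CPM in HT29, and RPS27L, a relative of RPS27 that p53 can induce, did not pass the test between lines (0.06 ± 0.10). The 42 genes with a tract at the start had a median log2 difference of -0.64 between the lines and the 21 tested genes with an entry but no tract a median of -0.39, with 32 and 11 called lower.

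**Figure D1:**
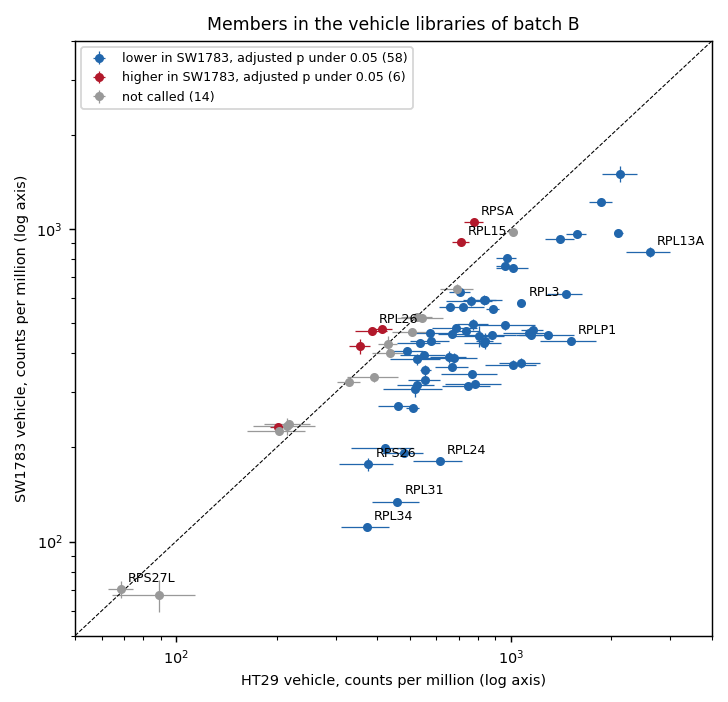
Level of 78 ribosomal protein genes in the batch B vehicles, HT29 on the x axis and SW1783 on the y axis, in CPM on log axes, with points at the mean of 3 libraries and bars for the SD. Most points lie under the diagonal: 58 genes were lower in SW1783, 6 were higher and 14 were not called, and RPL39L is not drawn because it had no counts in HT29.

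Levels also differed widely between genes of the same particle, where each protein is present once except for the stalk proteins RPLP1 and RPLP2. Ranked by CPM per kb of the canonical transcript, over the 60 genes whose canonical transcript is at most 1500 nt long, the SW1783 vehicle of batch B ran from 103.9 (RPL31) to 1590 (RPS2), with a median of 671. In HT29 the range was 162 (RPS28) to 2312 (RPL13A), with a median of 952. In SW1783 the order RPS2 (1590 ± 95.4 CPM per kb), RPS18 (1469 ± 21.6) and RPL39 (1443 ± 18.5) stood at the top, and RPS18 and RPL39 differed by little more than their SDs. RPL13A and RPS2 led HT29 at 2312 ± 349 and 2250 ± 269 CPM per kb, values that lie within one another's spread. RPS26, a protein at the mRNA exit channel, was near the bottom in both lines, at 155 ± 7.4 and 330 ± 60.6 CPM per kb. These ranks rest on annotated lengths, at 1291 nt for RPL31, 1330 nt for RPS28 and 1140 nt for RPS26 (median 715.5 nt). Without division by length RPS29 lay below RPL31 in SW1783 (67.6 against 134 CPM) and below RPS28 in HT29 (89.2 against 215 CPM). Transcript lengths in these cells were not measured, and the part of the divisor in the ranks was not tested. Across the 60 genes the levels of the lines had a Spearman's rho of 0.686 (a description, since the genes share libraries and lengths). The level of RPS2 may include reads of near-identical copies, as pseudogenes named after it held 13.4% of the joint counts in SW1783, and the same holds for RPL23A (26.9% in SW1783 and 17.3% in HT29) and RPL36A (13.7% and 12.2%).

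The high dose of ACD in SW1783 left the summed share of all counts where it was but shifted single genes. This share was 3.77 ± 0.03% in vehicle and 3.73 ± 0.09% at the high dose (SD, n = 3). With mitochondrial genes left out of the total it was 3.98 ± 0.04% and 4.10 ± 0.09%. On that scale the libraries overlapped, at 3.94% to 4.02% in vehicle and 4.00% to 4.19% at the high dose. Of 80 genes tested, 33 were higher and 3 lower than the vehicle (DESeq2, adjusted p under 0.05), against 23.9% and 22.6% of all genes tested, and RPS26 alone passed the 1.5-fold cut, on the lower side (9.57% of all genes, with 8.66% on the higher side). The median log2 change of the 80 genes was 0.10, against -0.01 for all genes. The groups did not overlap for 32 genes on the higher and 6 on the lower side (30.6% and 29.9% of all genes). The 60S subunit had 23 of 48 genes higher and 1 lower, and the 40S subunit 10 of 32 higher and 2 lower. Genes with a tract at the start were called higher in 17 of 42 cases and genes without one in 9 of 21. Counts scaled to the library total, in place of DESeq2's size factors, gave 9 genes higher and 19 lower, and under that scaling the median of all genes was at -0.12. In the same libraries the mitochondrial ribosomal RNAs rose from at most 0.96% to 5.76% to 6.06% of the counts, and with the mitochondrial genes left out of the scaling 32 genes were called higher and 4 lower.

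RPS26 was the exception to the upward shift. It had 3603, 3384 and 3746 normalized counts in the 3 vehicle libraries, 3542, 3177 and 3283 at the low dose, 2686, 2781 and 2888 at the medium dose and 2028, 1948 and 2152 at the high dose. Medium and high libraries were all below the vehicle and the low dose overlapped it. The log2 changes were -0.10 ± 0.05 at the low dose (DESeq2 adjusted p = 0.33), -0.36 ± 0.05 at the medium dose (1.64e-11) and -0.81 ± 0.05 at the high dose (2.53e-55), and at the high dose the mean fell by 42.9%. RPS26 is mutated in some patients with Diamond-Blackfan anemia, and its protein can leave the mature ribosome. RPL7A (-0.08 ± 0.03, adjusted p = 0.0392) and RPS15 (-0.08 ± 0.03, 0.0493) were the other genes called lower, both close to the threshold. The call was lost in 5 of 15 alternatives for RPL7A and in 9 for RPS15. RPL7A ranged from 13962 to 15047 normalized counts against 15176 to 15656 in vehicle and RPS15 from 4376 to 4730 against 4770 to 4920, so that neither overlapped.

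RPL3, which lies at the peptidyl transferase centre, had 11899, 11471 and 11827 normalized counts in vehicle, 11693, 12011 and 11829 at the low dose, 13513, 13778 and 13294 at the medium dose and 15233, 15598 and 15409 at the high dose. RPL12, a protein of the stalk base, went from 9667, 9187 and 9160 in vehicle through 9410, 9644 and 10361, and 10904, 10747 and 11533, to 12268, 12339 and 12063 at the high dose. For each of these genes the medium and high libraries lay above every vehicle library and the high above the medium. RPL3 and RPL12 are both known to limit their own mRNA through a splice form that is degraded. The log2 change at the high dose was 0.39 ± 0.02 for RPL3 (DESeq2 adjusted p = 2.94e-61) and 0.39 ± 0.04 for RPL12 (4.35e-27), and at the medium dose 0.21 ± 0.02 (1.64e-16) and 0.24 ± 0.04 (1.08e-10). Next came RPL10A of the L1 stalk, at 5457, 5419 and 5599 in vehicle and 6640, 6998 and 6658 at the high dose (0.30 ± 0.04, adjusted p = 8.31e-17), and RPL13 (0.29 ± 0.07, 9.37e-05), whose pseudogenes held 5.75% of the joint counts. The remaining 29 genes called higher had log2 changes of 0.06 to 0.24, the highest in RPS18, so that their rises were small beside those of RPL3 and RPL12.

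**Figure D2:**
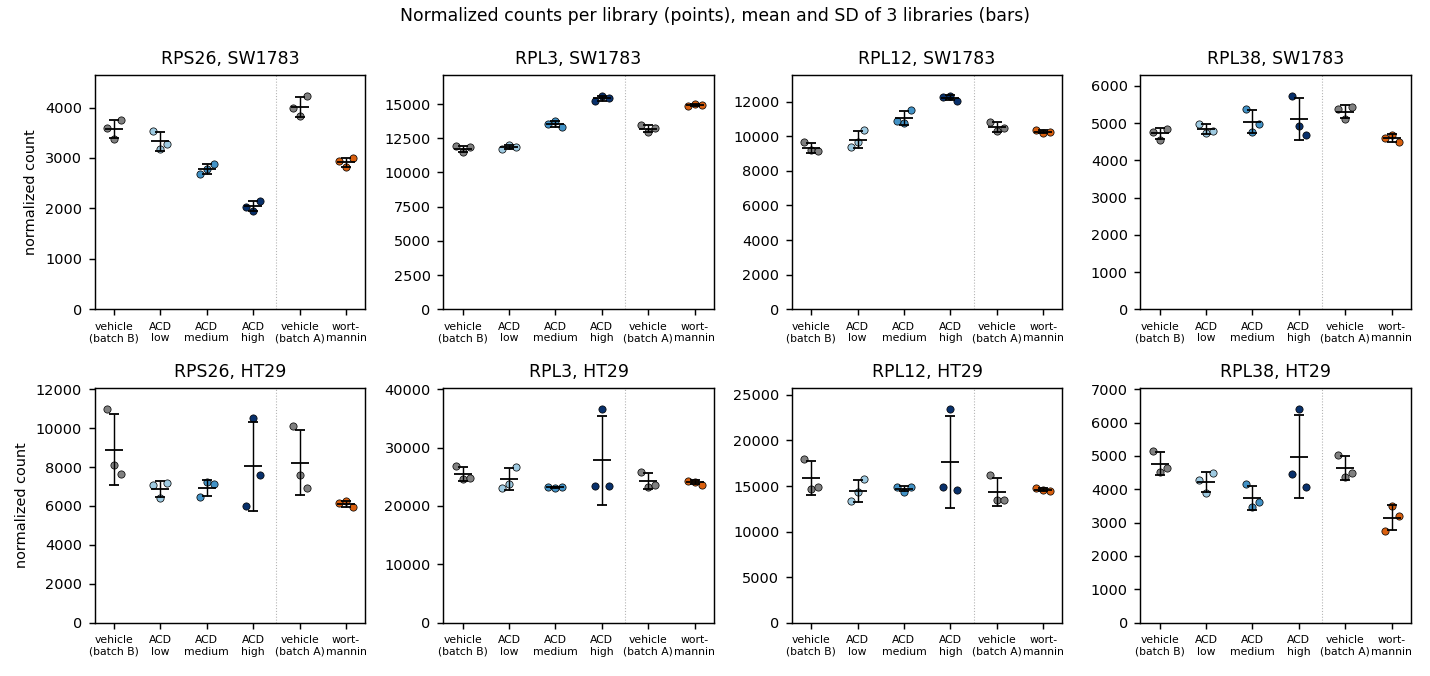
Normalized counts of RPS26, RPL3, RPL12 and RPL38 in every library (points) with mean and SD of the 3 libraries of each group, SW1783 in the upper and HT29 in the lower row, with a dotted line between batch B and batch A, which are scaled separately. In SW1783 RPS26 falls and RPL3 and RPL12 rise from vehicle to the high dose without overlap, and in HT29 ACD high replicate 2 lies above the other libraries of its group for all 4 genes.

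At the medium dose in SW1783, 18 of 79 genes were higher and 1, RPS26, was lower (15.1% and 14.5% of all genes), with a median log2 change of 0.04. The genes with the largest rises after RPL12 and RPL3 were RPL13 (0.20 ± 0.07, DESeq2 adjusted p = 0.0193) and RPS27, a zinc finger protein of the 40S subunit (0.18 ± 0.04, 3.94e-05). Scaled to library totals the split became 2 higher and 25 lower, and without medium replicate 1 or vehicle replicate 1 the genes higher numbered 9 and 11. Mitochondrial ribosomal RNAs held 7.67% to 8.05% of the counts at the medium dose, against at most 0.96% in vehicle, and their part in that split was not tested. Relative to all genes the median log2 change stayed at 0.0332 to 0.0435 over 10 settings, library totals among them. The low dose gave 1 gene higher and 1 lower of 78, near the 2.05% and 1.24% of all genes. RPLP0, the base of the stalk, had 18854, 18019 and 16786 normalized counts at the low dose against 19338, 19367 and 19925 in vehicle (-0.13 ± 0.03, adjusted p = 0.0066), and RPL30 was at 0.13 ± 0.04 (0.0459). Neither gene was called by edgeR, which called none of the 78.

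Among genes with special roles, RPL5 and RPL11, which carry the 5S RNA and bind the p53 regulator MDM2, were at 0.10 ± 0.03 (called higher) and -0.00 ± 0.04 at the high dose in SW1783. RPS6, the substrate of the S6 kinases, rose by 0.10 ± 0.04 on the log2 scale (adjusted p = 0.0171). Of the P proteins of the stalk (RPLP0, RPLP1 and RPLP2), RPLP2 alone was called (0.11 ± 0.05, adjusted p = 0.0455), and this call was lost in 8 of 15 alternatives, among them each single library left out. With library totals as scale RPL5, RPS6 and RPL13A changed sign, so that the direction of these small changes depends on the scaling.

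In HT29 no ribosomal protein gene was called at any dose of ACD. At the high dose 0 of 78 genes were higher and 0 lower by DESeq2 (4% and 3.62% of all genes), edgeR also called 0, and 0 genes had an unadjusted p under 0.05, against 3049 of 16450 genes in all. The median log2 change was 0.09, with a median SE of 0.19 per gene, while the corresponding SE in SW1783 was 0.04. The 95% interval of the log2 change reached from -0.52 to 0.22 for RPS26, from -0.17 to 0.43 for RPL3 and from -0.17 to 0.48 for RPL12, which leaves room for rises of RPL3 and RPL12 of the size seen in SW1783.

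The HT29 libraries of one group differed over the whole set. Relative to the vehicle mean, the median log2 shift of 78 genes was -0.28, 0.55 and -0.17 in the 3 ACD high libraries, and 77 of 78 genes were above the vehicle mean in replicate 2. The batch B vehicle libraries were at 0.21, -0.09 and -0.15. Replicate 2 of ACD high and replicate 1 of the vehicle were therefore high, and the groups overlapped. Short protein-coding genes outside the set (transcripts of at most 1000 nt) moved alike, with medians of -0.26, 0.37 and -0.21 in ACD high and 0.20, -0.07 and -0.15 in vehicle, while long genes stayed between -0.02 and 0.03. The part of RNA length or quality in these shifts was not tested. In SW1783 the median shift of a library lay between -0.10 and 0.14 in every group.

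**Figure D3:**
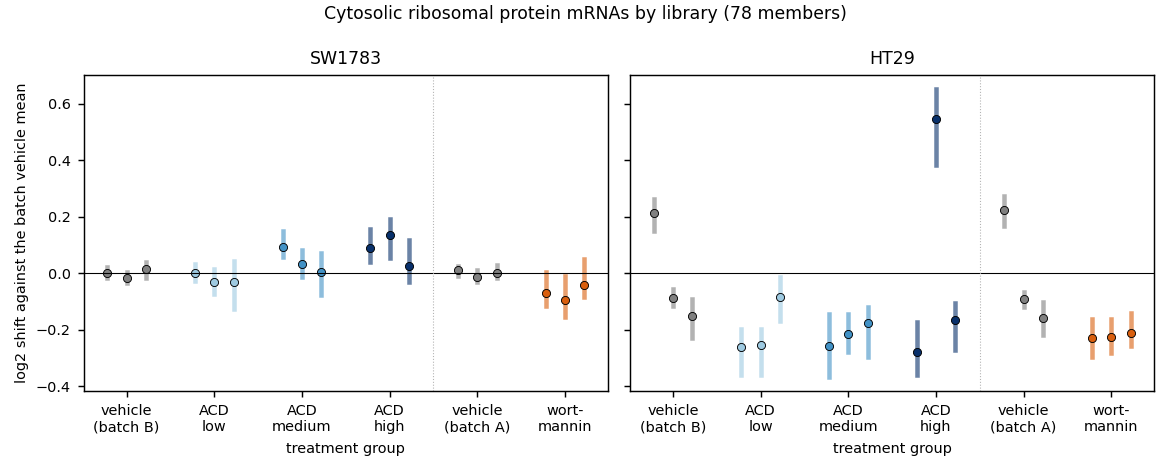
Log2 shift of 78 ribosomal protein genes in each library against the vehicle mean of its own batch, as the median (point) and the interquartile range (bar), for SW1783 and HT29 in separate panels. HT29 vehicle replicate 1 (0.21 in batch B and 0.22 in batch A) and ACD high replicate 2 (0.55) lie far above the other HT29 libraries, and the SW1783 libraries lie near 0.

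Without ACD high replicate 2, 23 of 78 genes were lower in HT29 and none higher (8.32% and 10.6% of all genes), with a median log2 change of -0.22. Among them were RPLP1 (-0.59 ± 0.20, DESeq2 adjusted p = 0.0192), RPS29 (-0.91 ± 0.30, 0.0206) and RPS27L (-0.55 ± 0.09, 3.67e-08). Without vehicle replicate 1 instead, 0 genes were called (2.77% of all genes lower and 3.14% higher) and the median was 0.19. Without both libraries 6 genes were lower (RPL23, RPL37, RPS19, RPS27L, RPS4X and RPS9) and none higher, with a median of -0.10. In that fit 5.28% of all genes were lower and 8.04% higher, so that the 6 genes were not far above the share of all genes. The direction of the HT29 high-dose result thus turned with 1 library.

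At the medium and low doses in HT29 nearly every gene had a negative log2 change, 77 of 78 with a median of -0.21 and 78 of 78 with a median of -0.19, but none passed the test in DESeq2 or edgeR. Of all genes tested, 0.942% and 0.315% were called lower and 1.15% and 0.302% higher at the medium and low doses. An unadjusted p under 0.05 was found for 9 of the 78 genes at the medium dose, against 1777 of 16450 genes in all, and for 6 of 78 at the low dose, against 1162 of 15875, which are similar shares. The groups did not overlap for 40 genes at the medium dose and 12 at the low dose, all lower (13.3% and 9.46% of all genes). Without vehicle replicate 1 the medians were -0.09 and -0.08. Fitted on the medium dose and vehicle libraries alone, without the low and high doses, the medium dose had 20 genes lower (2.25% of all genes). Short genes outside the set were also low in these libraries, at medians of -0.22, -0.20 and -0.17 in the medium and -0.24, -0.25 and -0.09 in the low dose libraries, and their part was not tested.

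The difference between the lines was tested directly. At the high dose RPS26 alone differed, by -0.70 ± 0.20 (SW1783 minus HT29, 95% interval -1.10 to -0.30, DESeq2 adjusted p = 0.00329), 1 of 79 genes lower against 15% of all genes and 0 higher against 12.7%. In HT29 RPS26 had 10984, 8104 and 7628 normalized counts in vehicle and 6011, 10505 and 7604 at the high dose, which overlap. The RPS26 difference remained called in all alternatives, including those without the HT29 libraries that stood apart, where its log2 value ranged from -0.88 to -0.47. Without ACD high replicate 2, another 33 of 79 genes were called higher in SW1783 (16.2% of all genes). Without both libraries 17 were (16.6% of all genes), which is nearer to the share of all genes. At the medium and low doses 0 of 79 genes differed by DESeq2 or edgeR (4.26% and 6.18% of all genes called higher and lower at the medium dose, 0.307% and 0.622% at the low), with 9 and 1 genes at an unadjusted p under 0.05, against 3261 of 15047 and 1166 of 12382 genes in all.

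Ribosomal protein mRNAs were lower with wortmannin in both lines, by small amounts. In SW1783 36 of 79 genes were lower and 6 higher (DESeq2, 20.1% and 13.8% of all genes), with a median log2 change of -0.06, and in HT29 26 of 78 were lower and 0 higher (11.1% and 7.63%), with a median of -0.22. No gene passed the 1.5-fold cut in DESeq2 (1.74% of all genes higher and 0.983% lower in SW1783, 1.92% and 0.731% in HT29). The groups did not overlap for 35 genes on the lower and 6 on the higher side in SW1783 (30.2% and 25.3% of all genes) and for 46 and 0 in HT29 (23.2% and 20.8%). The 60S subunit had 22 of 47 genes lower in SW1783 and 17 of 46 in HT29, and the 40S subunit 14 of 32 and 9 of 32. The HT29 vehicle of batch A again held a high replicate 1, at a median shift of 0.22, against -0.09 and -0.16 in the others and -0.21 to -0.23 in the wortmannin libraries. Without it the HT29 median was -0.10, with 29 genes lower and 1, RPL12, called higher (11.7% and 8.11% of all genes). The HT29 count was 8 with edgeR, 5, 5 and 9 without wortmannin replicate 1, 2 or 3, and 53 without vehicle replicate 3. Short genes outside the set were at -0.26 to -0.28 in the HT29 wortmannin libraries and at -0.08, -0.12 and -0.08 in those of SW1783, where the ribosomal protein genes were at -0.07, -0.09 and -0.04, and their part in the fall was not tested.

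RPL38, a 60S protein known for its role in the translation of Hox mRNAs, had 5040, 4371 and 4503 normalized counts in the HT29 vehicle and 2754, 3494 and 3212 with wortmannin, without overlap. In SW1783 it had 5370, 5112 and 5430 in vehicle and 4609, 4683 and 4479 with wortmannin. The log2 change was -0.56 ± 0.09 in HT29 (DESeq2 adjusted p = 7.13e-08), the largest of the set there, and -0.21 ± 0.03 in SW1783 (4.58e-09). RPS26 fell in both lines, from 3983, 3829 and 4231 to 2939, 2811 and 2994 in SW1783 (-0.46 ± 0.04, 7.01e-27) and from 10129, 7617 and 6950 to 6134, 6253 and 5949 in HT29 (-0.43 ± 0.11, 0.00172).

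RPL24 was at -0.25 ± 0.04 in SW1783 (DESeq2 adjusted p = 5.74e-10) and -0.32 ± 0.10 in HT29 (0.0172), and RPL35, at the exit of the peptide tunnel, at -0.18 ± 0.03 (2.17e-09) and -0.39 ± 0.09 (3.63e-04). Both were lower without overlap in both lines. The 5S partners RPL5 (-0.09 in SW1783, -0.21 in HT29) and RPL11 (-0.15 and -0.17), as well as RPS6 (-0.13 and -0.27) and RPSA (-0.17 and -0.26), were called lower in both lines. In HT29 the call was lost in 7 of 14 alternatives for RPL5 and for RPL11, in 4 for RPS6 and in 3 for RPSA. Altogether 19 genes were called lower in both, which is 52.8% of the SW1783 list and 73.1% of the HT29 list. Both lists are long, at 36 of 79 and 26 of 78 genes, and the HT29 list changed with edgeR and with single libraries left out. Whether 19 exceeds the overlap of unrelated lists of these sizes was not tested. Across 78 genes the changes of the lines had a Spearman's rho of 0.463 (a description).

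The largest fall in SW1783 was that of RPL39L, with 250, 227 and 230 normalized counts in vehicle and 158, 162 and 172 with wortmannin (-0.52 ± 0.14, DESeq2 adjusted p = 8.1e-04). Against the general fall, RPL3 was higher in SW1783, at 14861, 14984 and 14937 against 13462, 12952 and 13218 in vehicle (0.18 ± 0.02, 4.49e-15), and RPS27L at 1901, 1808 and 1928 against 1745, 1553 and 1674 (0.18 ± 0.05, 0.0025). RPL10, RPL13 and RPL13A were among the other genes called higher, by 0.08 to 0.15. Genes with a tract at the start were called lower in 19 of 42 cases and higher in 1, and genes without one lower in 10 of 21 cases and higher in 4.

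The wortmannin responses of the lines differed in 4 of 79 genes, all with the more positive change in SW1783 (5.33% of all genes called higher, 9.53% lower). RPS27L differed by 0.43 ± 0.12 (DESeq2 adjusted p = 0.00498), with a rise in SW1783 and lower values in HT29, from 1719, 1305 and 1375 to 1209, 1243 and 1169 normalized counts (-0.28 ± 0.10, 0.0412). The HT29 value of RPS27L was -0.15 and not called without vehicle replicate 1 (DESeq2 adjusted p = 0.116), and its call was lost in 8 of 14 alternatives. The others were RPL38 (0.32 ± 0.11, 0.0185), RPL37A (0.29 ± 0.10, 0.0376) and RPL3 (0.16 ± 0.05, 0.0144). RPS27L, RPL37A and RPL3 were called also without HT29 vehicle replicate 1, and RPL38 was not. In that fit 7 genes were higher and 4 lower (5.95% and 9.65% of all genes), with a median of 0.01 in place of 0.13.

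**Figure D4:**
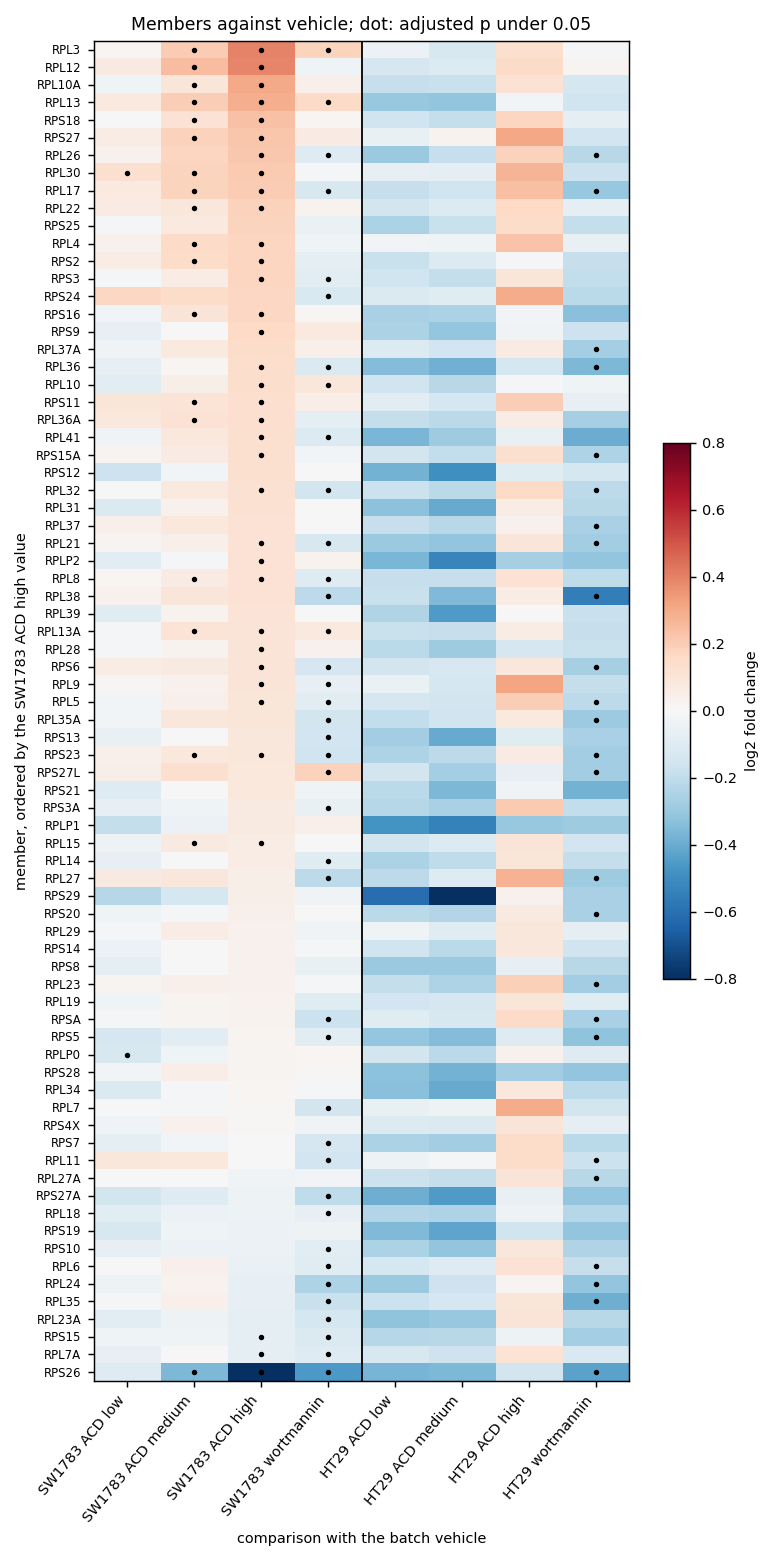
Log2 fold change of ribosomal protein genes (rows, ordered by the change at the high dose in SW1783) in the 8 comparisons with a vehicle (columns, low, medium, high and wortmannin for each line), in color that saturates at the ends of the scale, with a dot where the DESeq2 adjusted p was under 0.05. Dots are many in the SW1783 high, SW1783 wortmannin and HT29 wortmannin columns, where 36, 42 and 26 genes of the whole set were called, of which a few are not drawn, and absent from the 3 HT29 ACD columns.

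Other mRNAs with a TOP motif, from a list of 19 translation factors and related genes, included 14 called higher and 1 lower at the high dose in SW1783, with a median log2 change of 0.14 (23.9% and 22.6% of all genes). EIF4B, a helper of the eIF4A helicase, was at 0.58 ± 0.03 (DESeq2 adjusted p = 1.6e-71) and EEF2, the translocation factor, at 0.36 ± 0.03 (1.1e-44), and the rise of EIF4B was larger than that of any ribosomal protein gene. HNRNPA1, an RNA-binding protein, was the gene called lower (-0.32 ± 0.03). With wortmannin 5 of the 19 were higher and 11 lower in SW1783 (13.8% and 20.1% of all genes), and 1 higher and 3 lower in HT29, near the 7.63% and 11.1% of all genes. Host RNAs of small nucleolar RNAs, which carry the motif but make no protein, were higher in 6 of 8 cases with ACD in SW1783 and in 5 of 8 with wortmannin (1 lower), at medians of 0.32 and 0.34, where the ribosomal protein genes had medians of 0.10 and -0.06. GAS5 was at 0.80 ± 0.06 with ACD and 0.40 ± 0.05 with wortmannin in SW1783, and at 0.31 ± 0.08 with wortmannin in HT29, all called. ZFAS1 was at 0.60 ± 0.06, 0.52 ± 0.06 and 0.68 ± 0.08 in the same comparisons, also called.

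Of 15 regulators of mTOR and of TOP mRNAs, 9 were higher and 5 lower at the high dose in SW1783 (23.9% and 22.6% of all genes), and 3 were higher and 0 lower in HT29 (4% and 3.62%), with medians of 0.22 and 0.08. SESN2, which restrains mTORC1 when leucine is scarce, was at 2.74 ± 0.07 in SW1783 and 1.12 ± 0.14 in HT29, and DDIT4, another inhibitor of mTORC1, at 1.57 ± 0.05 and 1.83 ± 0.08. EIF4EBP1, the translation repressor that mTOR inactivates, was at 1.18 ± 0.06 and 0.80 ± 0.14, so that all 3 rose in both lines. With wortmannin SESN2 did not pass the test in either line (-0.13 ± 0.10 and -0.13 ± 0.14), and DDIT4 (-0.44 ± 0.11) and EIF4EBP1 (-0.44 ± 0.14) were called lower in HT29. Of the 78 mitochondrial ribosomal protein genes, whose products form another ribosome, 40 were lower with wortmannin in SW1783 and 46 in HT29 (20.1% and 11.1% of all genes). None was higher (13.8% and 7.63% of all genes), and the medians were -0.19 and -0.26. At the high dose in SW1783 15 were higher and 22 lower (23.9% and 22.6% of all genes, median -0.06).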

How the data were processed

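Per the labels, directional mRNA libraries were sequenced as 100 bp paired-end reads. The submitters' processing notes name FastQC 0.11.9, Trim Galore 0.6.5, STAR 2.7.3a and RSEM 1.3.3. The values deposited by the authors are RSEM expected counts per Ensembl gene on GRCh38, not normalized, of which 8.84% were not whole and were rounded here. RSEM divides reads of near-identical copies by a model whose error is not in the table, and 11 of the ribosomal protein genes overlap another gene on the same strand.

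The whole table was fitted with DESeq2 1.42.0 in R 4.3.3 (two-sided Wald test, its own size factors and filtering, Benjamini-Hochberg over all genes of a contrast), on the 12 batch B or 6 batch A libraries of a line. Interactions used 24 or 12 libraries, and the vehicles of both lines 6. Called means an adjusted p under 0.05. Normalized counts were scaled within each fit, n = 3 per group, and errors of log2 changes are SE. Of the 81 genes, 78 to 80 entered each test. The floor of 3 counts covers counting error only.

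The members and lists were chosen with earlier results of these data known. Named genes were the 4 largest called changes of each sign per comparison with a vehicle (mean normalized count of 100 or more), the 3 largest per sign between lines, and genes with set roles. Others were chosen after their values were seen. The submitters name the build as GRCh38 together with hg19. Alternatives were edgeR 4.0.16, other scalings, a low-count filter, a length trend removed, pseudogene counts added, only the groups compared, a replicate block and single libraries left out. The code was tested on simulated data. Between the groups compared, the deviations of same-numbered libraries correlated at -0.26 to 0.141 and in no comparison did all pairs exceed 0.1, so that no block was used in the main fits, although same-numbered vehicles of batches A and B were close to each other. Results of a few single genes are not reported here.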

Additional observations from a re-analysis of the deposited data

Results flagged for a closer look

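The following genes were singled out because the response of SW1783 and HT29 to the same treatment differed in an interaction test (DESeq2, SW1783 minus HT29, log2 scale, adjusted over all genes). At the high dose of ACD, RPS26 differed by -0.70, with a fall in all 3 SW1783 libraries and overlapping groups in HT29. With wortmannin, RPS27L differed by 0.43, RPL38 by 0.32, RPL37A by 0.29 and RPL3 by 0.16. With a replicate block RPS27L was the 1 gene of these 4 that remained called. RPL38 was not called without HT29 vehicle replicate 1, and the others were.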

How the results depend on the processing

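Counts of ribosomal protein genes called are given as main value and then alternative, for some with the share of all genes in the same fit. Where no share is given, a change in the count cannot be told from a change over all genes. For SW1783 at the high dose, 3 lower became 19 with library totals, 5 with a low-count filter, 1 with the length trend removed and 1 with the 1.5-fold rule, and 33 higher became 9 with library totals and 0 with the 1.5-fold rule. At the medium dose 18 higher became 2 with library totals and 1 lower became 25, and the 1.5-fold rule left 0 and 0. At the low dose 1 higher became 0 with edgeR, library totals, the low-count filter or the 1.5-fold rule, and 1 lower became 0 with edgeR or the 1.5-fold rule, 7 with library totals and 2 with only the groups compared. With wortmannin the 1.5-fold rule took 6 higher and 36 lower in SW1783, and 26 lower in HT29, to 0. HT29 at the high dose gave 4 higher with the length trend removed, and 2 lower with library totals. It gave 6 lower without both libraries that stood apart (5.28% of all genes). The HT29 medium dose gave 1 lower with the length trend removed, 20 with only the groups compared (2.25% of all genes) and 5 without both libraries (1.47%). HT29 wortmannin, 26 lower, gave 8 with edgeR, 13 with the length trend removed, 16 with library totals and 14 with a replicate block, and 3 higher with the length trend removed. For the difference at the high dose, 0 higher became 2 with the length trend removed, 1 with library totals and 17 without both libraries (16.6% of all genes). There 1 lower became 2 with the length trend removed. At the medium dose 0 higher became 16 with only the groups compared (6.03% of all genes) and 7 without both (7.19%). With wortmannin 4 higher became 1 with the replicate block and 0 with the 1.5-fold rule, and 0 lower became 2 with the length trend removed. Between vehicles 7 higher (batch B) and 4 higher (batch A) became 13 each with the length trend removed and 1 each with the 1.5-fold rule. The causes were not tested. Leaving out 1 library at a time gave 1 to 3 lower for SW1783 high, 9 to 18 higher for medium, 0 to 3 higher and 0 to 4 lower for low, and 3 to 8 higher for wortmannin. In HT29 it gave 0 to 23 lower at the high dose, 0 to 1 lower at the medium dose, and 0 to 1 higher and 5 to 53 lower with wortmannin (53 without vehicle replicate 3). For the differences it gave 0 to 33 higher and 1 to 2 lower (high), 0 to 5 higher (medium) and 1 to 23 higher and 0 to 4 lower (wortmannin, 23 without HT29 vehicle replicate 3 and 1 without SW1783 vehicle replicate 2), and between vehicles 7 to 12 (B) and 3 to 12 (A) higher. With library totals RPL13A (-0.00843), RPL5 (-0.016) and RPS6 (-0.00939) at the high dose and RPL13A (-0.00383) at the medium dose in SW1783 changed sign, and with the length trend removed so did RPL5 between vehicles (0.00939). Within the comparisons made, same-numbered libraries did not deviate together, unlike the vehicles of batch A with those of batch B, which were not compared. The block changed no other count by over 1.5 times. At the high dose the median SE of a log2 change was 0.19 in HT29 and 0.04 in SW1783.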

Other observations

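Beside the counts of the following lists, 23.9% of all genes tested were called higher and 22.6% lower at the high dose in SW1783, 13.8% and 20.1% with wortmannin in SW1783, and 7.63% and 11.1% with wortmannin in HT29. Of 11 genes of ribosome quality control, 8 were higher and 0 lower at the high dose in SW1783 (median log2 change 0.19), and 0 higher and 4 lower with wortmannin (median -0.08). ZNF598, the ubiquitin ligase that senses collided ribosomes, was at 0.88 ± 0.06 with ACD (DESeq2 adjusted p = 9.9e-53) and -0.19 ± 0.06 with wortmannin (0.0069) in SW1783. PELO, which frees stalled ribosomes, was at 0.42 ± 0.06 in SW1783 and 0.31 ± 0.08 in HT29 at the high dose, both called. Of 11 chaperones and importins of ribosomal proteins, 3 were higher and 5 lower at the high dose in SW1783. The share higher was near the 23.9% of all genes, and the share lower was above the 22.6%. With wortmannin 8 were lower in SW1783 and 6 in HT29 and none was higher.

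Of 10 genes of p53 output, 5 were higher and 2 lower at the high dose in SW1783, where 23.9% and 22.6% of all genes were. CDKN1A, the cell cycle inhibitor, was at 1.44 ± 0.07 in SW1783 and 0.59 ± 0.11 in HT29, both called, and MDM2, the p53 ligase, at 0.44 ± 0.06 in SW1783 and -0.06 ± 0.10 in HT29. Among ribosomal protein genes outside the naming rule, RPL22L1, a paralog of RPL22, was at 0.44 ± 0.10 with ACD and -0.70 ± 0.10 with wortmannin in SW1783, both called. FAU, whose product is cut into a ubiquitin-like protein and a 40S protein, was at -0.16 ± 0.04 in SW1783 and -0.38 ± 0.12 in HT29 with wortmannin, both called.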
